A study of Mus musculus with 3 samples.

Results

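The synaptotagmins are vesicle proteins that carry tandem C2 domains, and several of them sense the calcium that triggers vesicle fusion. Their genes were followed here in adult mouse cortex, in animals with 1 copy of Gtf2i altered and in wild-type animals. The members were taken by name: Syt1, Syt2, Syt3, Syt4, Syt5, Syt6, Syt7, Syt10, Syt11 and Syt17. A gene probe belonged to the family when its accession matched a RefSeq transcript of one of these 10 genes. Of 41174 gene probes on the array, 16 did so, for 9 genes, and no probe accession matched Syt5. The family was singled out with its ratios known, above all those of Syt10 and Syt1, so the ratios below, and the calls a fit of all probes gave them, are descriptions that support nothing about the family, and no p-value is given for a member.

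The mutant group was Gtf2i(+/Δex2), heterozygous for an allele named after exon 2 of Gtf2i, the gene of the transcription factor TFII-I. The other group was WT (+/+). Both groups were 16 weeks old and shared a mixed background of 98.4% C57BL/6J and 1.6% 129Sv/CD1. RNA was pooled from 3 to 5 mice of a genotype, and each of 3 two-colour arrays set a mutant pool against a wild-type pool. The labels do not state whether the arrays used separate pools, so errors are the spread between 3 arrays and may be technical. Pooling hides the spread between animals. In whole cortex, fewer cells that express a gene and less of its RNA per cell cannot be told apart.

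When an action potential opens calcium channels at a nerve ending, calcium binds the C2 domains of a vesicle's synaptotagmin, which then acts with the SNARE proteins Stx1a, Snap25 and Vamp2 to open the fusion pore. Syt1 and Syt2 are the fast sensors of transmitter release, and forebrain neurons rely mainly on Syt1. Syt7 binds calcium with higher affinity and serves slower release, while Syt4 and Syt11 have an N-terminal C2 domain that does not bind calcium. Syt3, Syt6 and Syt10 belong to a subgroup joined into dimers by N-terminal disulfide bonds. In mouse olfactory bulb neurons Syt10 controls calcium-triggered secretion of IGF-1.

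The ratio is the log2 of the deposited dye-swap-corrected Cy5 channel over the Cy3 channel, read as mutant over wild type. That direction is likely and not certain, and if it were turned every ratio below would change sign and every share of wild type would be inverted, so that the lowest Syt10 and Syt1 readings would stand at 262% and 182% of wild type. It rests on the readme, which puts test over control, on titles that name the mutant first, and on the Pro25G control spots, whose median log2 ratio was 4.51, -4.54 and 4.58 on replicates 1, 2 and 3. Replicate 2 had the mutant RNA in Cy5, and replicates 1 and 3 had it in Cy3. Over 27530 tested probes, Pearson's r across probes was 0.822 for replicates 1 and 2, 0.783 for replicates 1 and 3, and 0.625 for replicates 2 and 3. The Gtf2i probes A_52_P442585 and A_51_P499905 averaged -0.47 ± 0.04 and -0.32 ± 0.05 (SD, n = 3 arrays); where they lie within the gene is not stated in the labels or files.

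The promoters of the genes with the lowest readings are shown for context, from RefSeq on GRCm38.p6, limited to bases outside the annotated gene. The promoter table held 6 of the 10 genes. Each run is the gene's own strand, 5′ to 3′, and capitals mark CCAAT or its reverse complement ATTGG. The Syt10 run is chr15:89841981-89842110 on the minus strand and the Syt1 run is chr10:109010981-109011225 on the minus strand.
Syt10: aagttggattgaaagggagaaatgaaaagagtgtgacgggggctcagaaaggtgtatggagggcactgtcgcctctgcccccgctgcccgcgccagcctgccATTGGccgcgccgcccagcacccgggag
Syt1: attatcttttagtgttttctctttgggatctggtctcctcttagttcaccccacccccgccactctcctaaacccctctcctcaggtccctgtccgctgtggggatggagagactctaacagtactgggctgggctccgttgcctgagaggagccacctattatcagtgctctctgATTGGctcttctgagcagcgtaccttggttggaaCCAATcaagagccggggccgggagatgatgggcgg
The Syt10 run held 1 match and the Syt1 run 2. This motif was chosen after the runs were read, and 37.4% of all 32851 promoter windows of 300 bases hold it on either strand. The E-box CANNTG, a motif that reads alike on both strands and that TFII-I is known to bind in some promoters, was in neither run. The runs are 130 and 245 bases long; the whole 300-base windows they come from hold no E-box either, where 72.3% of all such windows do. A second Syt1 window, which starts inside the gene and is not printed, held 3 E-boxes. No TFII-I motif other than the E-box was counted, and TFII-I binding was not tested. A match is a run of letters and not a binding site.

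Of the 15 tested synaptotagmin probes, 13 had a mean log2 ratio below 0 and none passed as higher. Some of the 13 lay close to 0, such as Syt4 at -0.02, and Syt1 alone had 5 of the 15 probes. Over all 27530 tested probes, 13888 had a mean below 0. Of the 16 probes, 15 were flagged reliable on at least 2 arrays and entered the fit of all probes. In that limma fit 8 of the 15, for 6 genes, passed an adjusted p of 0.05 as lower in the mutant and 0 as higher; at an unadjusted p under 0.05 the counts were also 8 and 0. Over all tested probes 18.9% passed as lower and 15.0% as higher at the adjusted p. Because the family was chosen on this contrast, nothing is read from its count. The median log2 ratio was -0.19 over the 15 probes and -0.0016 over all tested probes. Without replicate 1 the count of lower probes was 5, when the probes of Syt2, Syt6 and Syt11 no longer passed. At an unadjusted p under 0.05 the counts without it were 9 lower and 0 higher, and the log2 ratios of those probes were then -0.25 for Syt2, -0.17 for Syt6 and -0.28 for Syt11. Over all tested probes the count of both directions was 9333, or 33.9%, and without replicate 1 it was 2409. Shares of all probes at the unadjusted p, and by direction without replicate 1, were not computed. The 18.9% and 15.0% therefore do not apply to those counts.

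**Figure D1:**
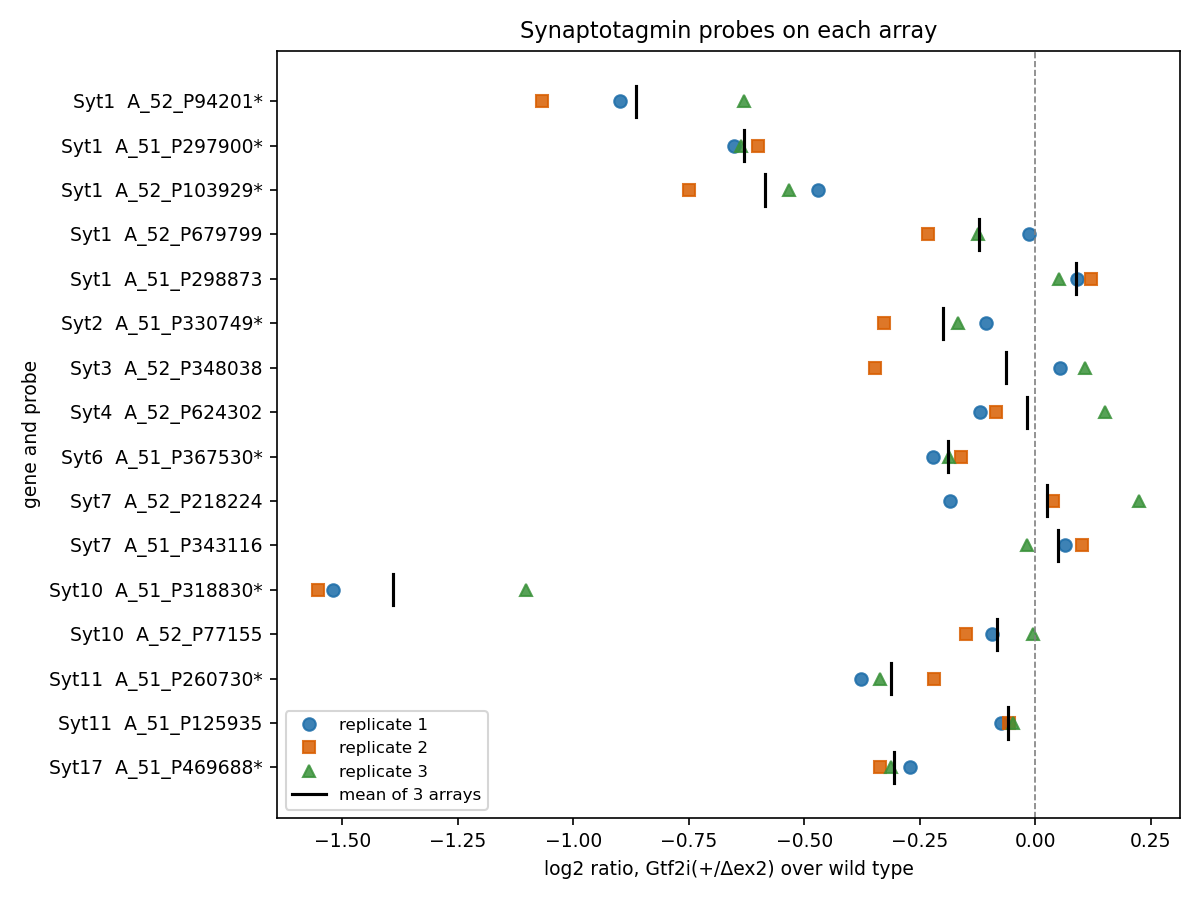
Log2 ratio of mutant over wild type on each of 3 arrays for the 16 synaptotagmin probes, with a bar at the mean; an asterisk marks the 8 probes that passed in the fit of all probes. Syt10 probe A_51_P318830 lies farthest left at a mean of -1.39, and the 5 Syt1 probes spread between -0.87 and 0.09.

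Syt1, the fast calcium sensor of forebrain synapses, was represented by 5 probes, all carrying the accession NM_009306. Probe A_52_P94201 gave intensities of 1714, 1614 and 2618 in the mutant pools of replicates 1, 2 and 3, against 3193, 3382 and 4052 in the wild-type pools. Every mutant value lay below every wild-type value. The log2 ratios were -0.90, -1.07 and -0.63, a mean of -0.87 ± 0.22 (SD, n = 3), or 54.9% of wild type.

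The other bright Syt1 probes read lower as well. A_51_P297900 gave 6158, 6991 and 6679 in the mutant pools, against 9682, 10589 and 10385 in the wild-type pools. Its log2 ratios lay within 0.0539 of each other and averaged -0.63 ± 0.03 (SD, n = 3), or 64.6% of wild type. This was the steadiest of the lower Syt1 probes across the dye exchange. A_52_P103929 gave 9267, 9567 and 9781 in the mutant pools, against 12840, 16083 and 14161 in the wild-type pools. Its mean was -0.58 ± 0.15 (SD, n = 3), or 66.7% of wild type, and its mutant and wild-type values did not overlap.

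The remaining Syt1 probes, both dimmer, did not pass in the fit. A_52_P679799 gave 358.9, 378.6 and 348.3 in the mutant pools, against 362.4, 444.4 and 379.3 in the wild-type pools, a mean log2 ratio of -0.12 ± 0.11 (SD, n = 3). A_51_P298873 gave 471.2, 507.5 and 405.2 in the mutant pools, against 442.2, 466.8 and 391.1 in the wild-type pools, a mean of 0.09 ± 0.04 (SD, n = 3). Mutant and wild-type values overlapped for both. With the level of the negative control spots subtracted, they read -0.16 and 0.10, still far from -0.89 for A_52_P94201 treated the same way. The authors called all 5 probes present in both pools on every array. The files do not give the part of the transcript that a probe covers, and whether the probes see the same Syt1 transcripts was not tested.

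Syt2, the fast sensor that prevails in hindbrain and spinal cord, had 1 dim probe. A_51_P330749 gave 159.4, 179.2 and 200.7 in the mutant pools, against 171.5, 224.8 and 225.3 in the wild-type pools. The mutant pool was lower on each array, although the values overlapped between arrays. The mean log2 ratio was -0.20 ± 0.11 (SD, n = 3), and with the control level subtracted it was -0.35. The probe passed in the fit, and no longer did without replicate 1 or without replicate 2.

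Syt10 gave the lowest reading of the family, on 1 of its 2 probes. A_51_P318830 gave 2251, 2559 and 4192 in the mutant pools, against 6453, 7503 and 8999 in the wild-type pools. Every mutant value lay below every wild-type value, and replicate 3 was the highest array in both pools. The log2 ratios were -1.52, -1.55 and -1.10, a mean of -1.39 ± 0.25 (SD, n = 3), or 38.1% of wild type. Without replicate 3 the mean was -1.54. The other probe, A_52_P77155, carries the same accession, NM_018803. It gave 209.8, 192.0 and 162.8 in the mutant pools, against 223.8, 213.1 and 163.4 in the wild-type pools, a mean of -0.08 ± 0.07 (SD, n = 3). Its values overlapped and replicate 3 was its lowest array, the reverse of the brighter probe. With the control level subtracted it read -0.15, against -1.42 for A_51_P318830.

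**Figure D2:**
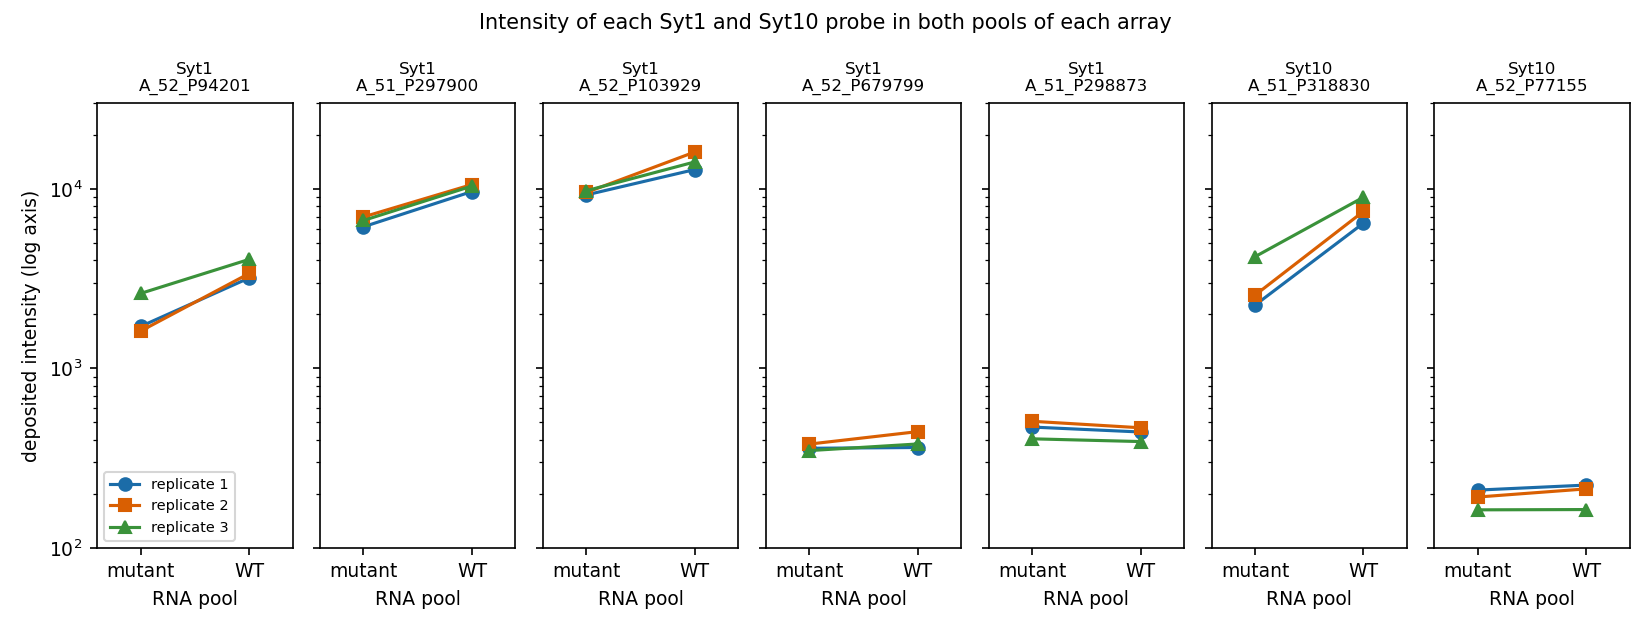
Deposited intensity of each Syt1 and Syt10 probe in the mutant and wild-type pools of each array, on a log axis, with a line joining the pools of 1 array. The lines climb toward wild type for 3 Syt1 probes and for Syt10 probe A_51_P318830, and stay near level for the 3 dimmer probes.

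Probes of 1 gene seldom differed this much on these arrays. Of 3270 named genes with several tested probes, the median spread between the lowest and highest probe mean was 0.16 on the log2 scale. The spread was 1.31 for Syt10, a size reached by 4 genes including Syt10, or 0.122%. It was 0.95 for Syt1, a size reached by 25 genes, or 0.765%; Syt1 has 5 probes, which gives more room for a spread than 2. For Syt11 the spread was 0.25, reached by 33.5% of these genes. In all 3 synaptotagmin genes the brightest probe read lower than the dimmest. Across all 3270 genes this was so in 45.5%. These figures describe ratios that were known when the family was chosen.

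Syt3 and Syt6, of the disulfide-linked subgroup that includes Syt10, gave small differences. The Syt3 probe A_52_P348038 gave 308.1, 286.0 and 376.3 in the mutant pools, against 296.9, 363.9 and 349.5 in the wild-type pools. Only replicate 2 was lower in the mutant, at -0.35, while replicates 1 and 3 stood at 0.05 and 0.11; the mean was -0.06 ± 0.25 (SD, n = 3) and did not pass. The Syt6 probe A_51_P367530 gave 186.5, 192.9 and 190.8 in the mutant pools, against 217.4, 215.7 and 217.1 in the wild-type pools. Its groups did not overlap and its mean was -0.19 ± 0.03 (SD, n = 3), or 87.7% of wild type. It passed in the fit, and no longer did without replicate 1.

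Syt7, the high-affinity sensor of slow release, was close to background. A_51_P343116 gave 144.7, 154.9 and 145.9 in the mutant pools, against 138.4, 144.4 and 147.7 in the wild-type pools, a mean log2 ratio of 0.05 ± 0.06 (SD, n = 3) that did not pass. A_52_P218224 was flagged reliable on replicate 3 alone and was not tested. It gave 105.0, 118.3 and 171.8 in the mutant pools, against 119.4, 115.2 and 147.1 in the wild-type pools. Medians of the 314 negative control spots ran from 72.3 to 81.4 over the 6 channels, and gene spots had medians of 204.1 to 206.1. A difference in Syt7 was thus hard to detect at these signals.

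Syt4 and Syt11, whose N-terminal C2 domains do not bind calcium, did not read alike. The Syt4 probe A_52_P624302 gave 1743, 1918 and 1996 in the mutant pools, against 1894, 2036 and 1797 in the wild-type pools. It was lower in the mutant on replicates 1 and 2 and higher on replicate 3, with a mean of -0.02 ± 0.15 (SD, n = 3) that did not pass. The brighter Syt11 probe, A_51_P260730, gave 13348, 16879 and 15265 in the mutant pools, against 17343, 19658 and 19276 in the wild-type pools. Its groups did not overlap, and the mean of -0.31 ± 0.08 (SD, n = 3), or 80.6% of wild type, passed except without replicate 1. The dimmer Syt11 probe, A_51_P125935, with the same accession NM_018804, gave 1452, 1545 and 1472 in the mutant pools, against 1528, 1606 and 1523 in the wild-type pools. It was lower in the mutant on every array by a small and even amount, -0.06 ± 0.01 (SD, n = 3), and did not pass.

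Syt17, also known as B/K protein, lacks the transmembrane segment of most synaptotagmins. Its probe A_51_P469688 gave 167.9, 155.8 and 172.0 in the mutant pools, against 202.6, 196.6 and 213.6 in the wild-type pools. The groups did not overlap and the log2 ratios were -0.27, -0.34 and -0.31, a mean of -0.31 ± 0.03 (SD, n = 3), or 80.9% of wild type. This probe passed in the fit and in each fit that left out 1 array.

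The size of the dim readings depended on the background. The authors called the Syt2, Syt6 and Syt17 probes and the dimmer Syt10 probe marginal, a call their readme gives to intensities between 150 and 250, in both pools on every array. With the control level subtracted, Syt17 read -0.55 (68.2% of wild type) and Syt6 -0.32 (80.0% of wild type). The same step moved the bright probes little, to -0.64 for Syt1 probe A_51_P297900 and -0.31 for Syt11 probe A_51_P260730.

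**Figure D3:**
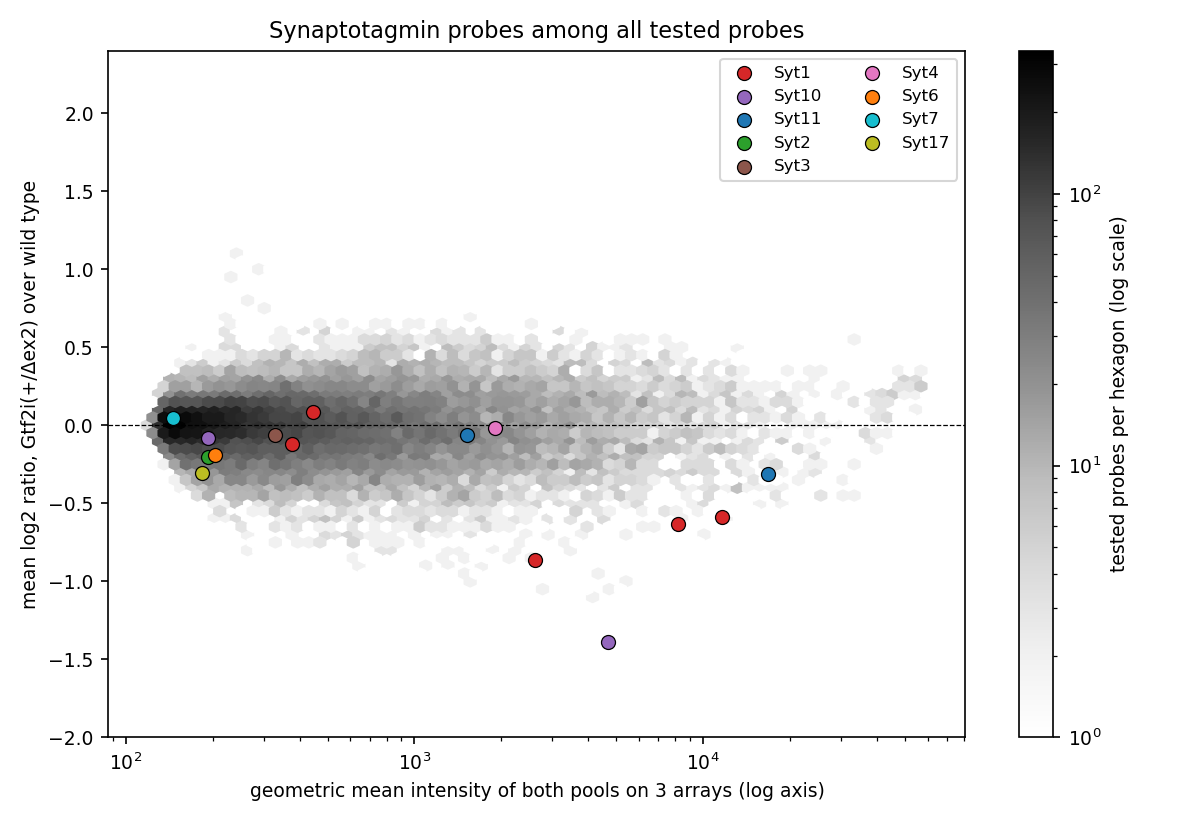
Mean log2 ratio of mutant over wild type against geometric mean intensity on a log axis, for all 27530 tested probes (grey) and the 15 tested synaptotagmin probes (colours). The bright probes of Syt10 and Syt1 lie at the lower edge of the cloud, and the dim probes of the same genes lie inside it.

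Calls were more frequent among bright probes in general. When the tested probes were cut by brightness into 4 bins of near-equal size, 26.6% passed as lower in the brightest bin and 8.88% in the dimmest. Among synaptotagmin probes, 7 lay in the brightest bin, of which 5 passed as lower, and 4 in the dimmest, of which 2 did. The median log2 ratio was -0.0088 in the brightest bin and 0.0003 in the dimmest.

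Genes were also ranked by how near their ratios on the 3 arrays lay to those of the lowest Syt1 and Syt10 probes, as a Euclidean distance over 3 arrays and 16332 named probes. Nearest to Syt1 were the translation elongation factor gene Eef1a2 (distance 0.105), Ubap2l (0.130) and Cnnm1 (0.138). Near to Syt10 were the interferon-induced gene Ifitm3 (0.138) and Fam110a (0.170). With 3 arrays such nearness says no more than that the readings were alike.

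Other listed genes of calcium-triggered release mostly fell. This list and that of the relatives below were chosen with earlier results of these data known. Their counts and p-values are therefore descriptions and no independent support. Of 20 genes of the vesicle fusion machinery 18 were measured, and 13 fell and 1 rose in the limma fit with Benjamini-Hochberg adjustment. A gene was read at the probe of smallest p, and by that reading 40.7% of all 12721 named genes passed, 23.6% as lower and 17.1% as higher. The list's median log2 ratio was -0.29 against -0.02 for all genes, but brightness was not matched. Complexin genes, whose proteins clamp the SNARE complex until Syt1 binds calcium, were among the falls: Cplx2 read -0.88 ± 0.05 (SD, n = 3, limma adjusted p = 0.00196) and Cplx1 -0.56 ± 0.11 (SD, n = 3, limma adjusted p = 0.00312). Sv2a, a vesicle glycoprotein that binds Syt1, fell by 0.58 on the log2 scale (limma adjusted p = 0.00349), and Nsf, the ATPase that takes SNARE complexes apart, fell by 0.38 (limma adjusted p = 0.00416). The rise was Snap25, a SNARE gene named after its values were seen, with probes at 0.23, 0.28 and 0.33, the last of which did not pass. Syngr1 counted as fallen at -0.34, while another of its probes read 0.14 and passed as higher. Napa counted as fallen at -0.31, while its brighter probe read 0.17, was higher on every array and did not pass. Without replicate 1, 7 genes fell and 0 rose in the limma fit, against 11 and 1 at an unadjusted p under 0.05. Over all tested probes 2409 passed in that limma fit, against 9333 with every array. The share of all genes was not computed for these settings, so 23.6% and 17.1% do not apply to them.

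Relatives with tandem C2 domains passed about as often as genes in general. The list held 19 genes, the remaining synaptotagmin genes among them, and 12 were measured, of which 3 fell and 2 rose, where 23.6% of all named genes passed as lower and 17.1% as higher. The median log2 ratio was -0.09. Rph3a, a Rab3 effector, fell by 0.49 on the log2 scale (limma adjusted p = 0.0029), and Doc2a, a calcium sensor of spontaneous and asynchronous release, fell by 0.31 (limma adjusted p = 0.00548). Syt12 rose by 0.19 ± 0.06 and Sytl4, which encodes granuphilin, by 0.19 ± 0.08 (SD, n = 3, limma adjusted p = 0.0203 and 0.0298). The Sytl4 probe was dim and flagged reliable on only 2 arrays. It was called marginal in both pools on replicates 1 and 2 and absent in both on replicate 3. Its mutant and wild-type values overlapped. The third fall, outside the naming rule, was Syt13, whose dim probe read -0.16 ± 0.06 and whose bright probe read 0.14 ± 0.25 (SD, n = 3). In the limma fit without replicate 1, 0 relatives rose, or 1 at an unadjusted p under 0.05, and without replicate 2, 1 rose. Syt9, Syt15 and Syt16 were measured and did not pass, at 0.06, 0.15 and -0.10 on the probe with the smallest p.

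**Figure D4:**
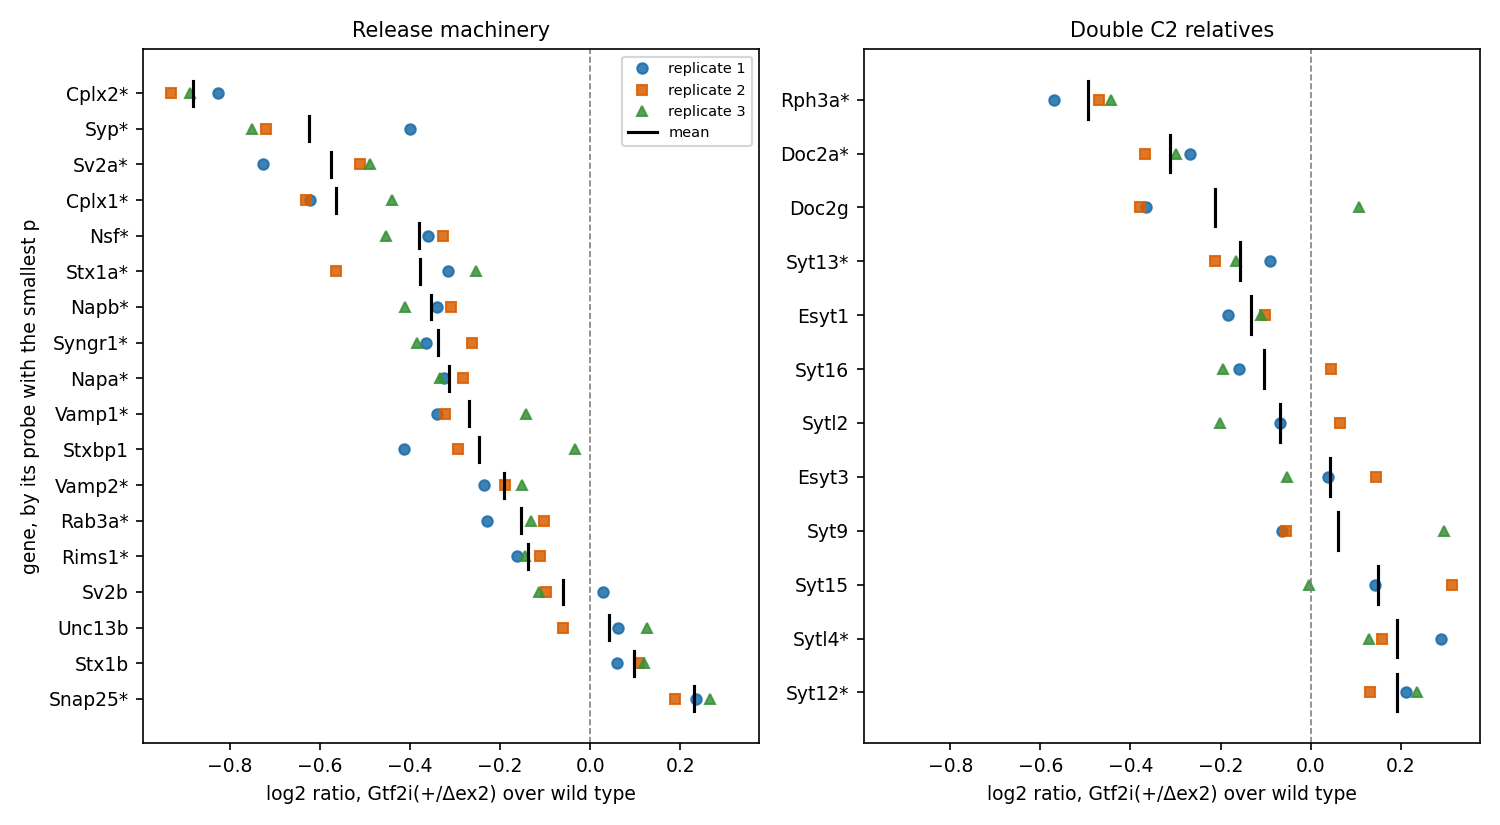
Log2 ratio of mutant over wild type on each array for measured genes of the vesicle fusion machinery (left) and of relatives with tandem C2 domains (right), each read at the probe of smallest p; bars are means and asterisks mark genes that passed. On the left 13 genes passed below 0 and Snap25 above it; on the right 3 passed below and 2 above.

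Cell and tissue markers moved on the same arrays. All 6 markers of cortical glutamatergic neurons were measured, with summed intensities of 19765 to 32588 in the mutant pools and 25765 to 42679 in the wild-type pools. Their mean log2 ratio was -0.27, -0.26 and -0.33 on replicates 1, 2 and 3. In the limma fit 4 of the 6 genes passed as lower and 0 as higher. Over all named genes 23.6% passed as lower and 17.1% as higher. The mean of the list was lower on every array, as the bright Syt1 and Syt10 probes were, and a link between them was not tested. Not every marker was lower, as Neurod6 read 0.04, 0.06 and -0.59. Thalamic markers, 6 of 7 measured over 13 probes, with Lef1 not measured and none at 0, summed to 9707 to 12341 in the mutant pools and 4811 to 11084 in the wild-type pools. Their mean log2 ratio was -0.05, -0.05 and 0.66 on replicates 1, 2 and 3. The mutant sums were 11088, 12341 and 9707 on those arrays, against wild-type sums of 10535, 11084 and 4811. The wild-type pool of replicate 3 thus stood well below the other wild-type pools. On the same arrays the brighter Syt10 probe read -1.52, -1.55 and -1.10, Syt1 probe A_52_P94201 read -0.90, -1.07 and -0.63, and Syt4 read -0.12, -0.09 and 0.15. Syt1 probe A_51_P297900, Syt6 and Syt17 stayed within 0.0642 of one value across arrays. Markers of GABAergic interneurons, 6 of 6 measured, averaged -0.27, -0.17 and -0.01, and summed to 20348 to 25671 in the mutant pools and 28717 to 30106 in the wild-type pools. Of the interneuron genes 3 passed as lower and 0 as higher. Others went the other way: Pvalb read 0.19, 0.20 and 0.68 on replicates 1, 2 and 3, and Vip 0.41, 0.50 and -0.06. Astrocyte markers, 4 of 5 measured without Gfap, averaged -0.32, -0.28 and -0.31, with sums of 12350 to 16158 in the mutant pools and 13563 to 14709 in the wild-type pools, and 3 genes passed as lower. Not all astrocyte probes were lower: Slc1a3 read 0.11, 0.32 and -0.003, and Slc1a2 probe A_51_P477875 read -0.08, 0.05 and 0.01. On replicate 2 the astrocyte sum was higher in the mutant pool, at 16158 against 14709. Choroid plexus markers, 4 of 4 measured, were higher on every array, at 0.20, 0.22 and 0.19, with sums of 5891 to 6629 in the mutant pools and 4879 to 5241 in the wild-type pools, which do not overlap, and 2 genes passed as higher. Striatal markers, 6 of 6 measured, averaged -0.22, -0.31 and 0.14, with sums of 10792 to 12198 in the mutant pools and 11664 to 12363 in the wild-type pools. Oligodendrocyte markers, 5 of 5 measured, averaged -0.17, -0.25 and -0.05, with sums of 41470 to 54469 in the mutant pools and 46207 to 63807 in the wild-type pools. Microglia markers, 5 of 5 measured, averaged -0.14, -0.12 and -0.11, with sums of 4078 to 4453 in the mutant pools and 4301 to 4587 in the wild-type pools. In the same fit 4 of the 5 microglia genes passed as lower and 1 as higher. The counts of lower and higher genes were 2 and 0 for striatal markers, 2 and 1 for oligodendrocyte markers, and 0 and 1 for thalamic markers. The part of these tissue and cell differences in the synaptotagmin readings was not tested.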

How the data were processed

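Each array was deposited as a table of 44290 spots, read with GenePix per the readme. Intensities were background-subtracted, normalized and dye-swap-corrected by the authors, by a normalization not given in the sources used here. The authors also deposited a log2 ratio collapsed over repeated spots and, as the series value table, a score per spot (a signed fold) equal to the fold column at every spot; its medians were -1.01, -1 and 1, and 0 of its columns were left unused. Of 41174 probes 52.1% were named through unversioned RefSeq accessions of GRCm38.p6. Spots of a probe were averaged on the log2 scale. The planned loess was kept as an alternative because the intensities were already normalized. Probes flagged reliable (foreground over 2 times background) on at least 2 arrays were tested against 0 with limma 3.58.1 in R 4.3.3, adjusted by Benjamini-Hochberg. A gene was read at the probe of smallest p. Subtraction of the control level used a floor of 10. The R package data.table (1.17.8), pandas 2.3.3 and matplotlib 3.10.9 were also used. Array number limits precision.

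The members and lists were chosen with earlier results of these data known. The text names every member and probe, up to 4 genes per list with the smallest p, and the 3 nearest genes to the lowest Syt1 and Syt10 probes, of which 1 is not reported here. Alternatives were control subtraction, loess, median centring, the authors' collapsed ratio, other reliability filters, leaving out each array, array weights and a dye covariate.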

Additional observations from a re-analysis of the deposited data

How the results depend on the processing

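Over 11 alternatives, 162 of 165 log2 ratios of tested synaptotagmin probes stayed within 1 SD of the reported value, and no probe that passed changed sign. Leaving out 1 of 3 arrays or adding the dye covariate cannot move a mean by 1 SD of those arrays. The reliability filters leave each ratio as it was. For these alternatives the outcome was fixed in advance, so the count says little about robustness. The 3 that moved were the dim probes of Syt2 (-0.35), Syt6 (-0.32) and Syt17 (-0.55) with the control level subtracted. Over all alternatives Syt10 probe A_51_P318830 ran from -1.54 to -1.31 and Syt1 probe A_51_P297900 from -0.65 to -0.62. Leaving out 1 array gave 5 to 8 lower and 0 to 0 higher synaptotagmin probes, 7 to 12 lower and 0 to 1 higher genes of the fusion machinery, 2 to 3 lower and 0 to 3 higher relatives with tandem C2 domains, and 2409 to 9885 probes passed in all. Array weights gave replicate 1 a weight of 5.84, against 0.373 and 0.459 for replicates 2 and 3. They gave 18617 probes in all, 11 lower and 2 higher synaptotagmin probes, 2 higher genes of the fusion machinery and 6 lower relatives. With probes reliable on all 3 arrays, 1 relative was higher. Without a filter 7 synaptotagmin probes were lower, as Syt2 no longer passed. The fit is of ratios within arrays, so it already pairs the mutant and wild-type pools of an array, and no further replicate block exists. Signals near the negative controls limit Syt7 and the marginal probes most.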
